A study of Mus musculus with 6 samples.

Results

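The genes described here are 10 genes of oestrogen signalling, namely the oestrogen receptors Esr1, Esr2 and Gper1, the orphan receptor Esrra, the coregulator Nrip1, and the oestrogen-responsive genes Greb1, Pgr, Tff1, Igfbp4 and Rara. They were picked by symbol, and all 10 were found among the 35869 symbols of each expression table. The tables come from cultured mouse acute myeloid leukaemia cells transformed by retroviral MLL-AF9, an oncogenic fusion found in human leukaemia. The knockout (KO) group was 3 libraries of cells with floxed Chaf1b and the recombinase CreERT2, given B-estradiol (oestradiol) to delete Chaf1b, a subunit of the histone chaperone complex CAF-1. The control (WT) group was 3 libraries of the same floxed, CreERT2-carrying cells given ethanol vehicle instead. All cells grew with the cytokines SCF, IL6 and IL3, and RNA was taken 48 hours after induction. Because B-estradiol was given to every KO culture and to no WT culture, the ligand and the deletion cannot be told apart in this comparison. No source used here tells how many clones were used or whether replicates were separate cultures, so the spread behind each p-value may be technical. Values of single libraries are listed by replicate number, 1 to 3.

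Oestradiol binds the nuclear receptors encoded by Esr1 and Esr2, which then sit as dimers on response elements in DNA and recruit coactivators or corepressors. Gper1 encodes a membrane receptor that has been linked to rapid oestrogen signals, and Esrra resembles the receptors in sequence but binds no oestrogen. In human breast cancer cells GREB1, PGR, TFF1, IGFBP4, NRIP1 and RARA are textbook targets of the oestrogen-bound receptor, while in blood ESR1 acts in stem and progenitor cells. CreERT2 is itself a fusion of Cre with a mutated ligand-binding domain of human ESR1, so both groups carry a receptor-derived transgene. Whether any of its reads were counted under Esr1 was not tested.

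Values are in TPM, a share of all transcripts that corrects for transcript length, and they sum to 999924 to 999935 in these libraries. About 120 M reads per sample were sequenced according to the labels, but TPM keeps no depth, so the counting error of each value is unknown. Chaf1b was at 15.4 ± 1.97 TPM in KO, against 49.4 ± 1.06 TPM in WT (SD, n = 3 each; limma adjusted p = 0.0058). Myeloid markers were present in both groups, with Kit, a progenitor receptor, at a mean of 40.1 TPM in KO, against 35.1 TPM in WT. Of 11 tested myeloid markers 3 were called higher (Elane, Mpo and Prtn3) and Hoxa9 lower. Over all tested genes 12.9% were called higher and 6.11% lower. The 8 epithelial and stromal markers summed to between 68.7 and 75.6 TPM in KO and between 62.7 and 80.8 TPM in WT. Most of that sum was Pecam1, at 64.7 TPM in KO, against 67.4 TPM in WT. Of the 4 that were tested, Col1a1 and Cdh1 were called higher, both with a KO mean of 2.13 TPM. Their WT means were 0.367 and 0.333 TPM. Among the lymphoid and erythroid markers the B cell gene Ms4a1 was at 0 in all libraries. Of the 2 tested, Cd79a was called higher. The other, the erythroid gene Hba-a1, was at 7.6, 12.2 and 10.9 TPM in KO, against 8.9, 5.5 and 3.5 TPM in WT. It was not called (limma adjusted p = 0.13). The part of these marker changes in the results that follow was not tested. KO replicate 1 and WT replicate 1 stood apart from their groups: over tested genes, which are no independent replicates, log2(TPM + 1) of KO replicate 2 correlated with KO replicate 3 at r = 0.998 and with KO replicate 1 at r = 0.991. For WT replicate 2 these values were 0.998 and 0.984. Results are therefore also given without both.

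The promoters of 4 genes are shown, since the response elements of a receptor are short DNA words. Esr1 and Igfbp4 are the genes called, and Rara and Greb1 were added as examples whose stretches hold a motif searched for.
Esr1 (chr10:4611739-4611988, plus strand): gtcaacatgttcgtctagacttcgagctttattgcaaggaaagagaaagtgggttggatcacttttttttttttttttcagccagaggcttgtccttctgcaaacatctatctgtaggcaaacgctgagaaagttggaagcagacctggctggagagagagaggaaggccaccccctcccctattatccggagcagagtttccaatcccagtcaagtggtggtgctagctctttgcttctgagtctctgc
Igfbp4 (chr11:99040994-99041243, plus strand): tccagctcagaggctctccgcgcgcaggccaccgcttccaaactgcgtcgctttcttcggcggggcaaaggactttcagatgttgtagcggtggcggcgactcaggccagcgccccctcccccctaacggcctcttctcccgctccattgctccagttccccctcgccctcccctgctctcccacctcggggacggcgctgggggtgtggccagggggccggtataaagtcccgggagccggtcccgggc
Rara (chr11:98937446-98937695, plus strand): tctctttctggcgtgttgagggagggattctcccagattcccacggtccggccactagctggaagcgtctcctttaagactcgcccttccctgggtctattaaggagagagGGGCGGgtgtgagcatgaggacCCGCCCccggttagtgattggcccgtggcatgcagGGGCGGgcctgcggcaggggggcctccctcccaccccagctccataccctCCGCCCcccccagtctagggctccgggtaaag
Greb1 (chr12:16800887-16801136, minus strand): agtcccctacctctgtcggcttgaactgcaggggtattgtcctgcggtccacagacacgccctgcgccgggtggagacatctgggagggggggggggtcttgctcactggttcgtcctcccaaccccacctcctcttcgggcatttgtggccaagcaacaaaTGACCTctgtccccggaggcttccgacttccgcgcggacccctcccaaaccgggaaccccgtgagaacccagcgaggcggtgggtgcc
Each is the stretch of 250 bases before the first start that RefSeq lists on GRCm38.p6, written 5′ to 3′ on the strand of the gene. Capitals mark the GC box GGGCGG, a site of the factor Sp1, and the hexamer AGGTCA, a single arm of the receptor's element, each read on both strands. In human breast cancer cells the oestrogen receptor is known to act together with Sp1 at the IGFBP4 and RARA promoters. The printed Esr1 and Igfbp4 stretches held no match to either word, the Rara stretch held 4 GC boxes and no such hexamer, and the Greb1 stretch held 1 hexamer on the opposite strand, whose first base lies at position -88. Windows from 250 bases before to 50 bases after the start were available for 9 of the 10 genes, with 15 starts in all. The palindromic response element GGTCANNNTGACC was found in 0 of these 15 windows and in 23 of all 32851 promoter windows (0.0700%). The hexamer was in 2 of the 15 windows and in 16.3% of all windows. Besides the window of Greb1, it was in a window of Rara. There its first base lies after the start, at position 34, outside the stretch shown. The element of the oestrogen-related receptors, TCAAGGTCA, which contains that hexamer, was in 0 of the 15 and in 0.423% of all windows. The GC box was in 7 of the 15 and in 35.7% of all windows. Besides Rara, it was in windows of Gper1, Pgr, Nrip1 and Esrra, whose stretches are not shown. Windows of nearby starts overlap, so the same GC boxes before Rara were counted again in another window.

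The 10 genes spanned a wide range of expression, and 5 of them were at or near the lower limit of the tables. In KO the order from high to low was Igfbp4, Esr1, Esrra, Rara, Greb1, Tff1, Gper1 and Esr2, with Nrip1 and Pgr at 0. The order in WT was the same, except that Esr2 was at 0 there as well. Igfbp4, which encodes a secreted protein that binds insulin-like growth factors, had a mean of 572 ± 141 TPM in KO and 202 ± 10.5 TPM in WT (SD, n = 3 each). By mean level it was number 281 of all symbols in KO and number 1056 in WT. Esr1 and Esrra followed in both groups with ranges that did not meet, 24.8 to 27.3 TPM against 16.9 to 17.8 TPM in KO and 19.4 to 20.2 TPM against 17.9 to 19.2 TPM in WT. Tff1 and Gper1 were below 1 TPM in every library and overlapped in both groups. Gper1 and Esr2 overlapped in KO and not in WT, where Esr2 was at 0. Since values are rounded to steps of 0.1 TPM, differences among these lowest genes are a few steps in size.

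**Figure D1:**
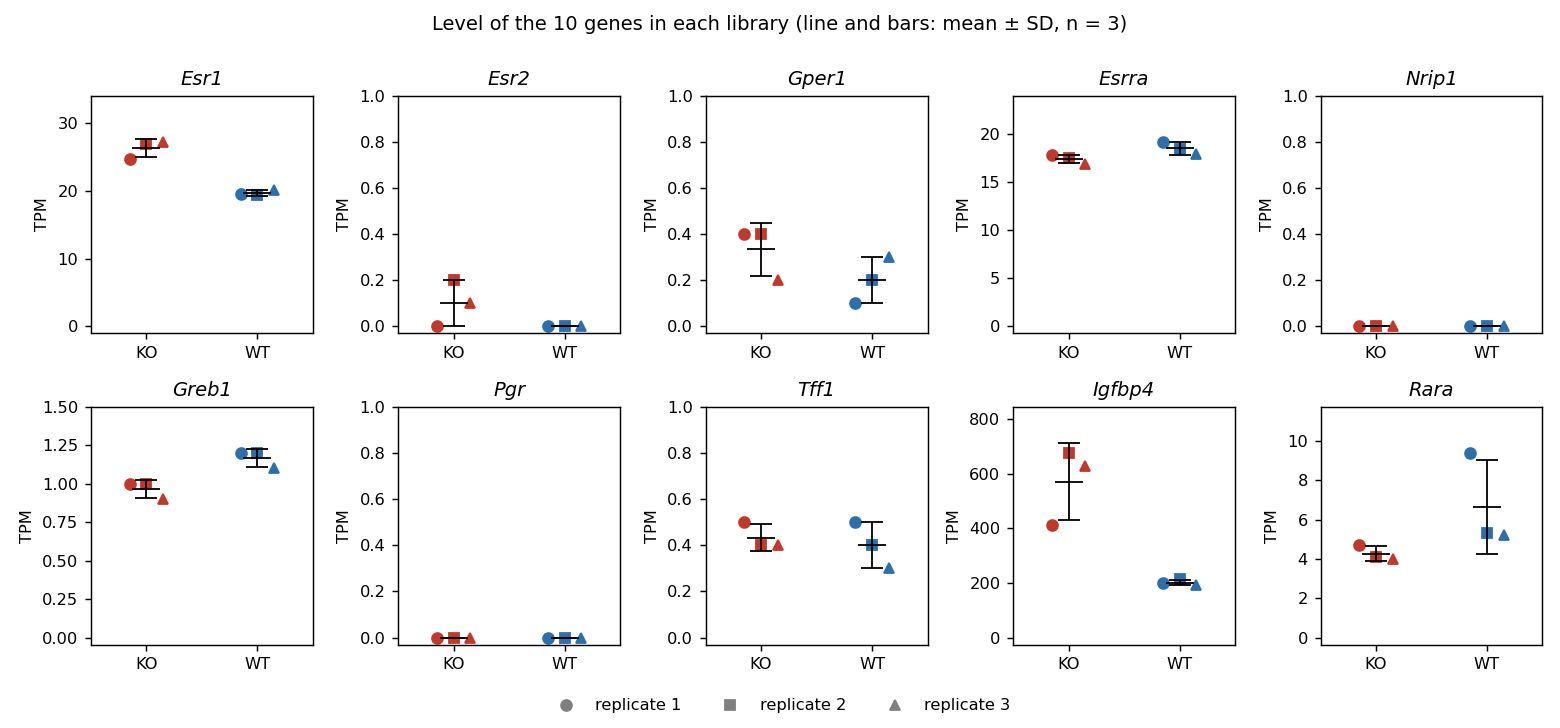
Level in TPM (vertical axes, each gene on its own scale) of the 10 genes in the KO libraries (left, red) and the WT libraries (right, blue), with the mean and SD of 3 libraries as black lines. Esr1 and Igfbp4 were higher in all KO libraries than in any WT library, Rara was high in WT replicate 1 at 9.4 TPM, and Nrip1 and Pgr were at 0 throughout.

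A level of 1 TPM or more in 3 or more libraries was asked of each gene, and 5 of the 10 genes were tested on that basis among 13575 in all (limma on log2(TPM + 1), Benjamini-Hochberg adjustment over all of them). Esr1 and Igfbp4 were called higher in KO at an adjusted p under 0.05, none was called lower, and Esrra, Greb1 and Rara were not called. Over all tested genes 19.0% were called, 12.9% higher and 6.11% lower. Of all calls 67.8% were higher with TPM as deposited, against 46.4% after median scaling and 43.9% after quantile normalization. For each of the 5 genes the libraries of KO and of WT lay apart, 2 with KO above WT and 3 with KO below. This held for 42.8% of all tested genes, 23.4% with KO above and 19.5% with KO below. The median log2 fold change of the 5 genes was -0.08, and that of all tested genes was 0.01.

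Among the receptors, Esr1 was the only gene tested besides Esrra, and it rose. Esr1 (mm10 chromosome 10, 4611593 to 5005614, plus strand, 19 merged exons in GENCODE M21) encodes oestrogen receptor alpha. It was listed at 24.8, 27.0 and 27.3 TPM in the KO libraries, against 19.5, 19.4 and 20.2 TPM in the WT libraries. All KO libraries lay above all WT libraries, and KO replicate 1 was the lowest of its group. The means were 26.4 ± 1.37 TPM in KO and 19.7 ± 0.44 TPM in WT (SD, n = 3 each), a ratio of 1.34. The log2 fold change was 0.40 (SE 0.06, 95% interval 0.26 to 0.54, limma adjusted p = 0.015). Of the 1745 genes called higher, 1416 (81.1%) had a larger log2 fold change. In bulk RNA, more cells that express Esr1 and more Esr1 RNA per cell cannot be told apart. The call was lost without KO replicate 2 (limma adjusted p = 0.0676) or 3 (0.0911) and without WT replicate 2 (0.0625) or 3 (0.0637). It held without both replicates 1, at a log2 fold change of 0.44 (adjusted p = 0.0027).

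The other oestrogen receptors were barely detected. Esr2 (chromosome 12, 76120419 to 76177259, minus strand), which encodes oestrogen receptor beta, was listed at 0, 0.2 and 0.1 TPM in KO and at 0 in all 3 WT libraries. KO replicates 2 and 3 were the only libraries above 0, by 2 steps and 1 step of rounding. Gper1 (chromosome 5, 139423151 to 139427800, plus strand), the membrane receptor, was at 0.4, 0.4 and 0.2 TPM in KO, against 0.1, 0.2 and 0.3 TPM in WT, and the groups overlapped. An exact two-sided permutation test over the libraries gave p = 0.4 for Esr2 and p = 0.3 for Gper1 (n = 3 each), where 3 against 3 libraries cannot go below 0.1. Gper1 lies across from 3110082I17Rik, a gene on the opposite strand at 46.5 to 62.4 TPM, with which it shares no exon bases in GENCODE M21.

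Esrra (chromosome 19, 6910977 to 6921813, minus strand) encodes an orphan receptor that drives mitochondrial and energy genes. It was at 17.8, 17.5 and 16.9 TPM in KO, against 19.2, 18.4 and 17.9 TPM in WT. The groups did not overlap, but the highest KO library and the lowest WT library were 1 step of rounding apart. The means were 17.4 ± 0.46 TPM in KO and 18.5 ± 0.66 TPM in WT (SD, n = 3 each), with a log2 fold change of -0.08 (95% interval -0.22 to 0.05, limma adjusted p = 0.31). Esrra shares 73 exon bases with Trmt112 on the opposite strand, a gene at 128.1 to 156.2 TPM. Another 91 are shared with Mir6990 on its own strand, listed at 123.1 to 157.5 TPM. Because of these shared bases and the unknown strand setting of the counting, the level of Esrra is uncertain.

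Nrip1 (chromosome 16, 76287400 to 76373827, minus strand) encodes RIP140, a corepressor of the oestrogen receptor that is itself induced by oestrogen in human breast cancer cells. It was listed at 0 TPM in all 6 libraries. An exact 0 was common, since 12985 of the 35869 symbols were at 0 in every library, while of 12 genes for RNA polymerase II subunits, which every cell uses, the lowest value was 41.8 TPM. Without the counts, a gene that gave no reads and one whose reads were not assigned to it cannot be told apart.

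Among the oestrogen-responsive genes, Igfbp4 had the largest change. Igfbp4 (chromosome 11, 99041244 to 99054392, plus strand) was at 411.3, 676.8 and 628.2 TPM in the KO libraries, against 200.6, 213.0 and 192.1 TPM in the WT libraries. Every KO library was above every WT library, and KO replicate 1 reached 0.630 times the mean of KO replicates 2 and 3. The KO mean was 2.83 times the WT mean, with a log2 fold change of 1.47 (SE 0.18, 95% interval 1.02 to 1.91, limma adjusted p = 0.013). Of the 1745 genes called higher, 320 (18.3%) had a larger log2 fold change, and 234 of these 320 had a mean under 10 TPM. The call was lost without KO replicate 2 (limma adjusted p = 0.0538) or 3 (0.0897), without WT replicate 2 (0.0580) or 3 (0.0586), and without the filter on low values (0.0657). Without both replicates 1 the log2 fold change was 1.68 (adjusted p = 0.0012). The stromal marker Col1a1 and the granule genes Mpo and Elane were also higher in KO, at 2.13, 1854 and 3162 TPM in KO against 0.367, 76.9 and 1359 TPM in WT, and their part in the rise of Igfbp4 was not tested.

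**Figure D2:**
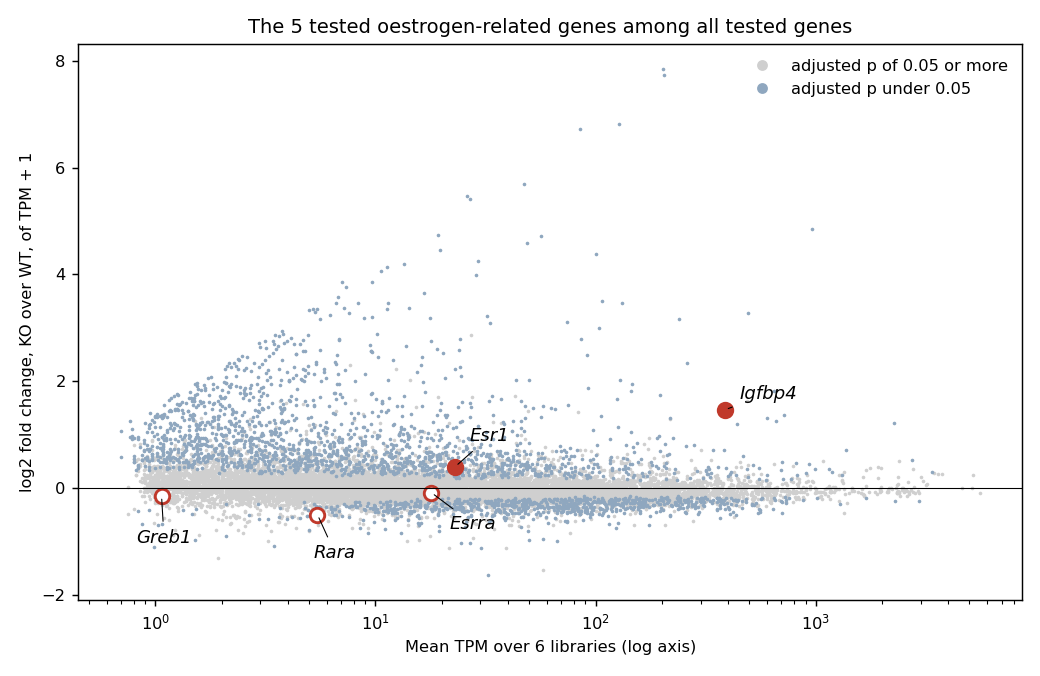
Log2 fold change of KO over WT on the log2(TPM + 1) scale (vertical axis) against the mean TPM of 6 libraries (horizontal log axis) for all 13575 tested genes, with the 5 tested genes of the set as red circles, filled where the adjusted p was under 0.05. Igfbp4 lies at 1.47 among the highly expressed genes, Esr1 at 0.40, and Esrra, Greb1 and Rara lie below 0 and are open.

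The other classical targets were low, and none was called. Greb1 (chromosome 12, 16670615 to 16800886, minus strand), a cofactor of the oestrogen receptor and among its most strongly induced genes in human breast cancer cells, was at 1.0, 1.0 and 0.9 TPM in KO, against 1.2, 1.2 and 1.1 TPM in WT. The KO values were below the WT values by 1 to 3 steps of rounding. The log2 fold change of Greb1 was -0.14 (95% interval -0.34 to 0.06, limma adjusted p = 0.27). Under quantile normalization it was -0.66 (adjusted p = 0.018). Greb1 shares 736 exon bases with the antisense gene Gm48140, so its level is uncertain as well. Tff1 (chromosome 17, 31161395 to 31165277, minus strand), a secreted trefoil peptide of mucosae, was at 0.5, 0.4 and 0.4 TPM in KO, against 0.5, 0.4 and 0.3 TPM in WT, with an exact two-sided permutation p = 1 (n = 3 each). Pgr (chromosome 9, 8899833 to 8968611, plus strand), the progesterone receptor, was listed at 0 TPM in all 6 libraries.

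Rara (chromosome 11, 98927818 to 98974942, plus strand) encodes retinoic acid receptor alpha, which controls granulocyte maturation. It was at 4.7, 4.1 and 4.0 TPM in the KO libraries, against 9.4, 5.3 and 5.2 TPM in the WT libraries. The groups did not overlap, and WT replicate 1 was 1.79 times the mean of the other WT libraries. The means were 4.27 ± 0.38 TPM in KO and 6.63 ± 2.40 TPM in WT (SD, n = 3 each), and the log2 fold change was -0.49 (95% interval -1.0 to 0.01, limma adjusted p = 0.14). Without WT replicate 1 the log2 fold change of Rara was -0.25 (adjusted p = 0.0586), and without both replicates 1 it was -0.31 with an adjusted p of 0.0090, so that Rara was then called lower in KO. In that smaller comparison 55.8% of all tested genes were called.

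Rara and Igfbp4 are neighbours on chromosome 11, 66301 bases apart, with Top2a, the DNA topoisomerase of dividing cells, between them. Top2a was at 138 ± 2.02 TPM in KO, against 134 ± 16 TPM in WT (SD, n = 3 each; limma adjusted p = 0.74). Cdc6, a replication licensing gene and the nearest tested gene before Rara, was at 20.7 ± 1.08 TPM in KO, against 21.7 ± 2.22 TPM in WT (adjusted p = 0.64). Tns4, which encodes a focal adhesion protein and follows Igfbp4, rose to 33.2 ± 1.19 TPM in KO, against 28.4 ± 1.11 TPM in WT (log2 fold change 0.22, adjusted p = 0.044). Of these neighbours Tns4 was thus called in the same direction as Igfbp4, with a smaller log2 fold change.

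**Figure D3:**
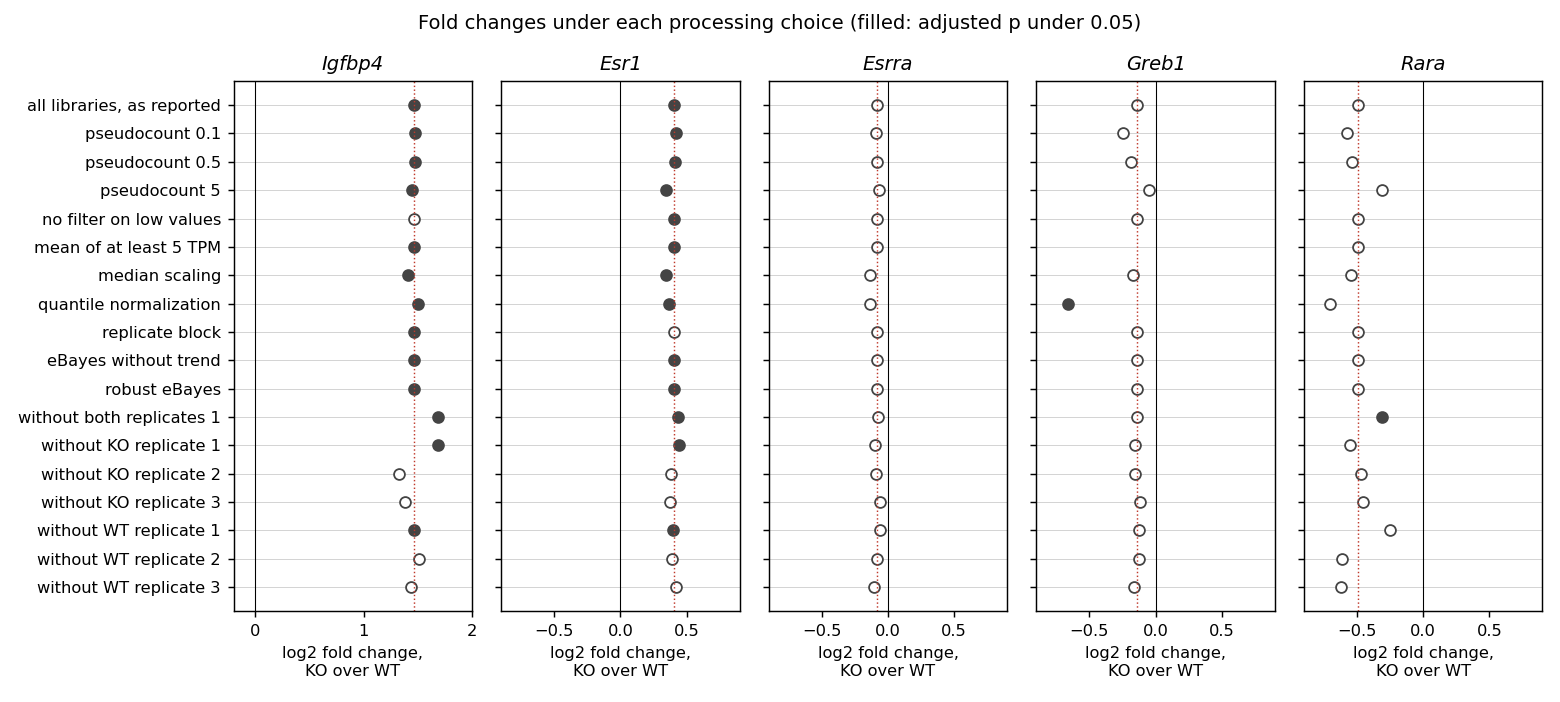
Log2 fold change of KO over WT (horizontal axes) of the 5 tested genes under each processing choice (rows), filled where the adjusted p was under 0.05; the dotted red line marks the value with all libraries and the axis of Igfbp4 is wider. Each gene stayed on its side of 0 in every row, between 1.33 and 1.69 for Igfbp4 and between 0.34 and 0.44 for Esr1, while the calls came and went with the library left out.

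For each of the 5 tested genes the 3 genes with the most similar pattern were taken by Pearson's r of log2(TPM + 1) over the 6 libraries, which share their group difference and the 2 libraries that stand apart. Values of r close to 1 were frequent: leaving out predicted models, 232 genes had an r above 0.99 with Igfbp4, 81 with Esr1, 35 with Rara, 10 with Greb1 and 5 with Esrra. Closest to Igfbp4 were Apoc1, an apolipoprotein gene, Ak1 and Serpinb9f, with r of 0.9996, 0.9993 and 0.9991, and all of them were called higher at KO means of 5.97, 2.23 and 2.47 TPM, against WT means of 0.733, 0.633 and 0.133 TPM. Closest to Esr1 were Fcgr1, Tapbpl and Plekhf1, with r of 0.998, 0.997 and 0.997. Fcgr1, an Fc receptor of phagocytes, was at 24.7 TPM in KO, against 2.93 TPM in WT, so a like pattern went with a far larger fold change than that of Esr1. Closest to Rara were Pcdh7, Pim2 and Kcng2, with r of 0.999, 0.999 and 0.998. Pim2, a survival kinase gene, was at 20.9, 18.7 and 18.3 TPM in KO and at 34.8, 22.3 and 22.6 TPM in WT, with WT replicate 1 the highest, as for Rara. Closest to Esrra were Trim35, Galnt7 and Pym1, and closest to Greb1 were Magohb, Erich1 and Snhg17, all with r from 0.996 to 1.000. Of these last 6 genes, Snhg17 was called lower and the others were not called.

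Around these genes, 9 lists of the wider pathway were read out of the same fit. They hold 119 distinct genes, of which 118 were in the tables and 77 were tested. Of the 77, 9 were called higher and 9 lower, or 23.4% called, beside 19.0% over all tested genes. Without both replicates 1 the number called was 56, where 55.8% of all tested genes were called. Without KO replicate 2 it was 2, and without KO replicate 3, WT replicate 2 or WT replicate 3 it was 0. The 18 called genes kept their direction after median scaling and after quantile normalization, under which 14 of them were still called.

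Of 5 tested genes that oestrogen induces in the mouse uterus, Ramp3 and C3 were called higher and none lower. Over all tested genes 12.9% were called higher and 6.11% lower. The median log2 fold change of the 5 genes was 0.37. Ramp3, which encodes a receptor activity-modifying protein for calcitonin-family receptors, was at 7.1, 16.5 and 14.5 TPM in KO, against 0.9 TPM in each WT library. It rose 14.1-fold (log2 fold change 2.77, SE 0.28, limma adjusted p = 0.011). C3, the central complement protein, was at 261.7, 358.8 and 320.7 TPM in KO, against 127.0, 116.2 and 130.5 TPM in WT. It rose 2.52-fold (log2 fold change 1.32, SE 0.12, limma adjusted p = 0.011). KO replicate 1 had the lowest KO value of both, as it did for Igfbp4 and Esr1, and no WT library reached it. Cdkn1a, Muc1 and Mad2l1 were not called, and Igf1, Ltf, Lif, Wnt4 and Inhbb did not pass the filter. With both replicates 1 left out, 4 of the 5 tested genes were higher and 1 lower, beside 28.4% higher and 27.3% lower over all tested genes.

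Of 24 tested genes from the oestrogen response of human breast cancer cells, 1 was called higher and 5 lower, beside 12.9% higher and 6.11% lower over all tested genes. Their median log2 fold change was 0.11. Rab31, a vesicle traffic GTPase, rose to 207 ± 22.5 TPM in KO, against 153 ± 10 TPM in WT (SD, n = 3 each; limma adjusted p = 0.029). Myc, the growth regulator that oestrogen induces in those cells, fell to 77.2 ± 9.76 TPM in KO, against 107 ± 2.36 TPM in WT (adjusted p = 0.024). Car12, a carbonic anhydrase, fell to 8.50 ± 1.32 TPM in KO, against 13.3 ± 1.84 TPM in WT (adjusted p = 0.034), and Wfs1, an endoplasmic reticulum protein, fell to 6.57 ± 0.35 TPM in KO, against 8.67 ± 0.81 TPM in WT (adjusted p = 0.037). Bcl2, the survival gene, and Slc7a5, an amino acid transporter, were the other 2 called lower, with log2 fold changes of -0.45 and -0.35; these were named after their values were seen. Well-known targets that were not called included Ccnd1, at 1.33 ± 0.12 TPM in KO, against 1.1 ± 0.20 TPM in WT (adjusted p = 0.32), and Xbp1, at 422 ± 18.5 TPM in KO, against 375 ± 23.5 TPM in WT (adjusted p = 0.093). With both replicates 1 left out, 11 were higher and 7 lower, beside the same 28.4% and 27.3% of all tested genes.

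Of the genes for insulin-like growth factors, their receptors and their other binding proteins, 2 receptors were called higher and no binding protein was called. These were 2 of 5 tested genes, beside 12.9% of all tested genes called higher, with a median log2 fold change of 0.60. Igf2r, the receptor that takes IGF2 to the lysosome, was at 54.0, 59.0 and 54.5 TPM in KO, against 26.1, 33.9 and 35.8 TPM in WT (log2 fold change 0.80, SE 0.12, limma adjusted p = 0.015). Igf1r, the signalling receptor, was at 5.6, 7.5 and 6.8 TPM in KO, against 4.6, 3.4 and 3.7 TPM in WT (log2 fold change 0.64, SE 0.13, limma adjusted p = 0.028). Neither gene overlapped between groups. Igfbp7 was at 3.53 ± 0.68 TPM in KO, against 2.30 ± 0.17 TPM in WT (adjusted p = 0.0503). Pappa, a protease that cleaves IGFBP4, was at 2.17 ± 0.40 TPM in KO, against 2.30 ± 0.26 TPM in WT (adjusted p = 0.74). After median scaling Igfbp7 was called higher (limma adjusted p = 0.0471). With both replicates 1 left out, 4 of the 5 tested genes were called higher and 0 lower. These included the binding protein genes Igfbp6 (adjusted p = 0.0081) and Igfbp7 (0.0326). In that comparison 28.4% of all tested genes were called higher and 27.3% lower. The genes of the ligands were near or at 0, with Igf1 at 0 in all 6 libraries and Igf2 at no more than 0.2 TPM. The level of Igfbp4 exceeded the summed level of the other 11 genes of this list, which was between 68.5 and 78.9 TPM in KO and between 39.5 and 45.7 TPM in WT.

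**Figure D4:**
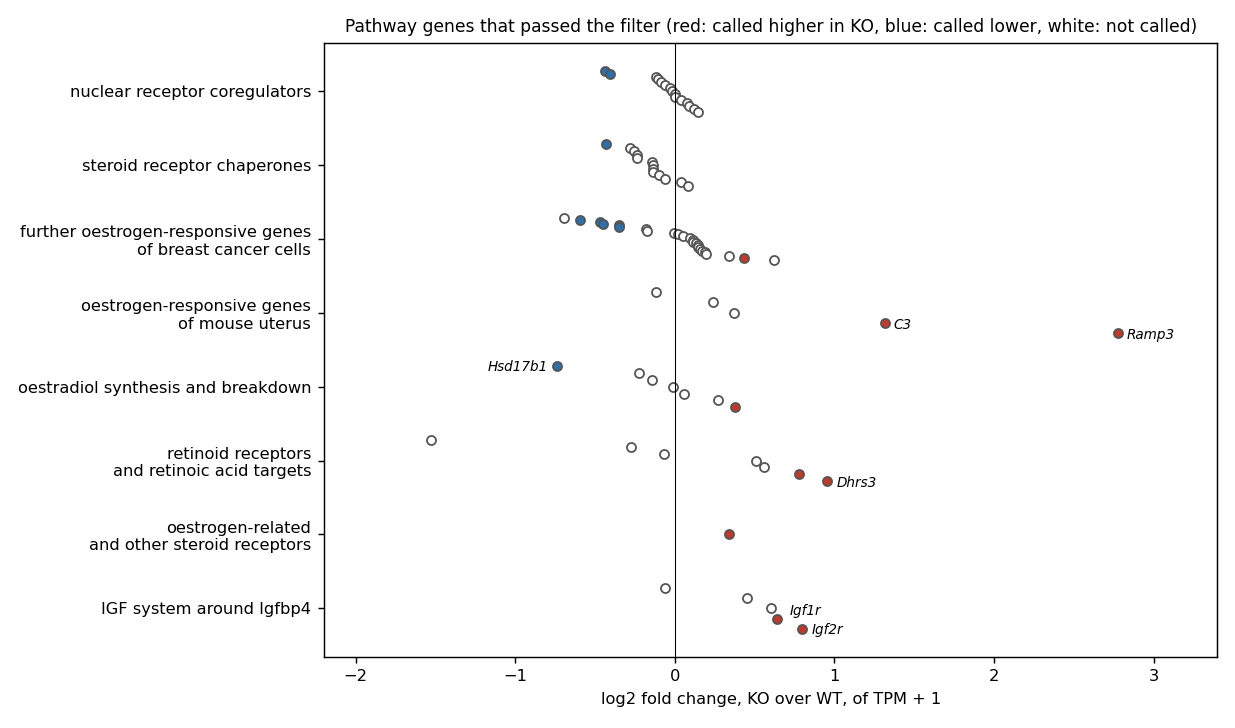
Log2 fold change of KO over WT on the log2(TPM + 1) scale (horizontal axis) of every tested gene in 8 of the 9 pathway lists (rows; no trefoil factor passed the filter), red where called higher, blue where called lower and white where not called. Ramp3 at 2.77 and C3 at 1.32 lie farthest to the right, and the chaperones and coregulators called are all on the left.

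Genes of the machinery that serves nuclear receptors were read beside 6.11% called lower and 12.9% called higher over all tested genes. Of 15 tested coregulators 2 were called lower and none higher, with a median log2 fold change of -0.02. Carm1, an arginine methyltransferase and coactivator, fell to 46.5 ± 4.92 TPM in KO, against 63.2 ± 1.04 TPM in WT (SD, n = 3 each; limma adjusted p = 0.021), and Phb2, a mitochondrial protein that also represses the oestrogen receptor, fell to 174 ± 19.1 TPM in KO, against 230 ± 4.21 TPM in WT (adjusted p = 0.025). The p160 coactivators Ncoa1, Ncoa2 and Ncoa3 and the corepressor Ncor1 were not called, with log2 fold changes between -0.10 for Ncor1 and 0.12 for Ncoa3. Foxa1 and Gata3, which open chromatin for the receptor in breast cells, were at no more than 0.1 and 0.2 TPM in any library. Of 13 chaperones that hold steroid receptors, and CreERT2 with them, in a ligand-ready state, 1 was called lower, with a median log2 fold change of -0.14. Ppp5c, a phosphatase of the HSP90 complex, fell to 56.9 ± 5.90 TPM in KO, against 76.9 ± 1.70 TPM in WT (adjusted p = 0.021). Without WT replicate 1, 9 of the 13 chaperones were called lower and none higher, beside 14.2% lower and 21.6% higher over all tested genes in that comparison. With both replicates 1 left out, 11 were lower and 1 higher, beside 27.3% lower and 28.4% higher over all tested genes.

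Of 7 tested genes for enzymes that make or break down oestradiol, 1 was called higher, 1 lower and 5 were not called, beside 12.9% higher and 6.11% lower over all tested genes. Sult1a1, a sulphotransferase, was called higher at 3.80 ± 0.35 TPM in KO, against 2.70 ± 0.20 TPM in WT (SD, n = 3 each; limma adjusted p = 0.037). Under quantile normalization the log2 fold change of Sult1a1 was 0.09, against 0.37 as deposited, and the call was lost (adjusted p = 0.48). Hsd17b1, which reduces oestrone to oestradiol, was called lower at 6.23 ± 1.88 TPM in KO, against 10.9 ± 1.00 TPM in WT (adjusted p = 0.039). The oestrogen sulphotransferase Sult1e1 and the cytochromes Cyp1a1, Cyp1a2 and Cyp1b1 were at 0 in all 6 libraries, and the aromatase gene Cyp19a1 was at 0.1 TPM in KO replicate 2 and at 0 elsewhere. Among 5 other steroid and oestrogen-related receptors only Nr3c1, the glucocorticoid receptor gene, passed the filter. It rose to 3.77 ± 0.29 TPM in KO, against 2.77 ± 0.15 TPM in WT (log2 fold change 0.34, adjusted p = 0.037). Under quantile normalization the log2 fold change of Nr3c1 was 0.06, and the call was lost (adjusted p = 0.57). Of the trefoil factors, Tff2 was at 0.5, 0.6 and 0.3 TPM in KO and at 0.2, 0.3 and 0 TPM in WT, and Tff3 was at 0 throughout.

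Retinoid receptors and retinoic acid targets, the surroundings of Rara, include several genes in which WT replicate 1 stood apart. Of 7 tested genes 2 were called higher and none lower, beside 12.9% higher and 6.11% lower over all tested genes. The median log2 fold change of the 7 genes was 0.51. Dhrs3, a retinaldehyde reductase that retinoic acid induces, rose to 1.33 ± 0.31 TPM in KO, against 0.20 ± 0.10 TPM in WT (SD, n = 3 each; log2 fold change 0.95, limma adjusted p = 0.014). Under quantile normalization the log2 fold change of Dhrs3 was 0.36, and the call was lost (adjusted p = 0.11). Tgm2, Cd38 and Rarg, named after their values were seen, were not called. Tgm2, the tissue transglutaminase, was at 19.3, 9.2 and 8.1 TPM in KO and at 283.0, 6.5 and 20.1 TPM in WT. Cd38, a surface ectoenzyme, was at 2.0, 5.4 and 4.0 TPM in KO and at 16.8, 0.2 and 0.4 TPM in WT. In WT replicate 1 the level was 21.3 times the mean of the other WT libraries for Tgm2, 56.0 times for Cd38 and 1.42 times for Rarg, which encodes retinoic acid receptor gamma. Of all tested genes, 1.81% were at least 2-fold above the other WT libraries there, on the TPM + 1 scale. Without both replicates 1, Cd38 was called higher (log2 fold change 2.13, limma adjusted p = 0.0023), and so was Rxra, a partner receptor of Rara (log2 fold change 0.76, adjusted p = 0.0021), while Rarg was called lower (log2 fold change -0.24, adjusted p = 0.022). In that comparison 28.4% of all tested genes were called higher and 27.3% lower.

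**Figure D5:**
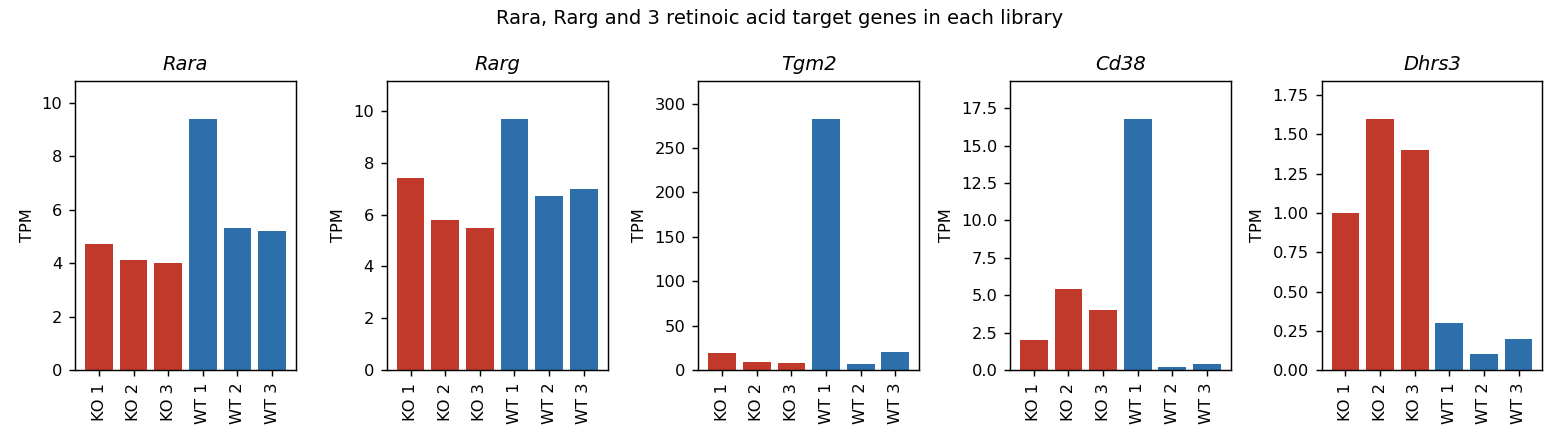
Level in TPM (vertical axes from 0, each gene on its own scale) of Rara, Rarg and 3 retinoic acid target genes in the KO libraries (red, left) and the WT libraries (blue, right). WT replicate 1 is the highest bar for Rara, Rarg, Tgm2 and Cd38, and for Dhrs3 all KO libraries are above all WT libraries.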

How the data were processed

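The authors deposited 1 table of TPM per library, for 35869 gene symbols, rounded to 1 decimal. Per the submitters' processing notes, the tools were STAR 2.6.1e, featureCounts 1.6.2, cutadapt 1.9.1 and Trim Galore 0.4.2, and the build was mm10. Per the labels' protocols, the libraries were stranded, poly(A)-selected and sequenced as paired 100 bp reads. Not given in the sources used here are the annotation, the strand setting and the step to TPM. A replacement is noted, without detail, in the file header of WT replicate 1 alone.

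The 13575 genes at 1 TPM or more in 3 or more libraries were compared between KO and WT on log2(TPM + 1) using R 4.3.3 and limma 3.58.1. The model held genotype alone, variances were moderated along a trend with mean level, and two-sided p-values were adjusted by Benjamini-Hochberg. Genes were called at an adjusted p under 0.05. Fold changes on this scale understate those of low genes. Genes under the filter got an exact permutation test over the libraries. The fit was tested on simulated data. Groups came from the sample labels.

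The genes and lists were chosen with earlier results of these data known, so no list gives independent support. All 10 genes are named. From each list the called genes are named in order of adjusted p, up to 3 in the direction with more calls and up to 2 in the other, or, with none called, the 2 highest. Genes outside this rule (markers, neighbours, unchanged or silent examples and those marked in the text) were picked with their values in view, as was the GC box. Gene positions are from GENCODE M21 and promoters from RefSeq, both on GRCm38, the assembly of mm10. The list gene Sts was not analysed here, and some other genes of the lists are not reported here.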

Additional observations from a re-analysis of the deposited data

How the results depend on the processing

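The direction of the 5 tested genes held under all 17 alternatives (16 for Greb1, whose mean is under 5 TPM); calls did not. Without the filter on low values, 525 genes were called in all and 1 of the 10 (Esr1). Igfbp4 was not called there (log2 fold change 1.47, limma adjusted p = 0.0657). Of the lists, 4 genes were called in all: 2 uterus genes, 1 breast cancer cell gene and 1 IGF gene. The uterus genes were C3 and Ramp3 (adjusted p = 0.0282 and 0.0432). Called were 0 coregulators, 0 chaperones, 0 oestradiol enzymes, 0 retinoid genes and 0 steroid receptors. The breast cancer cell gene and the IGF gene called without the filter were Celsr2 and Igfbp2. Both were at 0.1 TPM in every KO library and at 0 in every WT library, a difference of the smallest rounding step. Igf2r, Igf1r, Rab31 and Myc were not called without the filter. Among genes averaging 5 TPM or more, 1578 genes, 1 oestradiol enzyme, 0 retinoid genes and 0 steroid receptors were called. Quantile normalization called Greb1 lower (log2 fold change -0.66), with 3 chaperones, 1 retinoid gene and 0 steroid receptors, and median scaling 5 chaperones and 4 oestradiol enzymes. Without both replicates 1 the calls were 7569 genes, 5 coregulators, 12 chaperones, 18 breast cancer cell genes, 5 uterus genes, 6 oestradiol enzymes, 5 retinoid genes and 4 IGF genes, 56 list genes in all, and Rara was called lower (log2 fold change -0.31). The cause of these changes was not tested.

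Leaving out each library in turn gave between 0 and 4850 called genes, between 0 and 2 of the 10, and between 0 and 37 list genes. Log2 fold changes ranged over 0.38 to 0.44 for Esr1, 1.33 to 1.69 for Igfbp4, -0.62 to -0.25 for Rara, -0.16 to -0.12 for Greb1 and -0.11 to -0.06 for Esrra. List counts ranged from 0 to 2 coregulators, 0 to 9 chaperones, 0 to 11 breast cancer cell genes, 0 to 4 uterus genes, 0 to 5 oestradiol enzymes, 0 to 4 retinoid genes, 0 to 1 steroid receptor and 0 to 3 IGF genes. The 2 list genes called without KO replicate 2 were uterus genes. With 0 genes called without KO replicate 3 in limma, 3381 had an unadjusted p under 0.05.

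The replicate numbers share no stated source, and deviations of same-numbered libraries from their group means were negatively correlated across genes (r = -0.199, -0.145 and -0.164), so the numbers were not taken to pair the libraries. The fit with the replicate block called 333 genes and 1 of the 10, with Esr1 not called (log2 fold change 0.40, limma adjusted p = 0.0558). It called 2 list genes in all, the uterus genes C3 and Ramp3 (adjusted p = 0.0458 and 0.0446). Called were 0 coregulators, 0 chaperones, 0 breast cancer cell genes, 0 oestradiol enzymes, 0 retinoid genes, 0 steroid receptors and 0 IGF genes. TPM gives no depth, so for genes under 1 TPM neither absence nor a difference can be judged here.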
